A study of Mus musculus with 8 samples.

Results

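Mouse embryonic fibroblasts carrying the EA form of STAT5 were compared with fibroblasts carrying the YF form, both after 120 minutes of growth hormone. The comparison rests on 4 of the 8 arrays of the series, the 2 EA arrays and the 2 YF arrays labelled as treated with growth hormone, and it covers every probe set of the array except the control probe sets. All cells were Stat5-null embryonic fibroblasts of the C57BL/6 strain into which a mutant had been carried back by a retroviral vector. The labels describe EA as an EE to AA change in a binding domain of STAT5 and YF as Y694F, a change of the phosphorylated tyrosine. No array of cells with unmutated STAT5 or with an empty vector is analysed here, so each difference is between the mutants and not from a normal cell. The remaining 4 arrays are EA and YF cells without stimulation, 2 of each, and they serve here to show which differences were already there before the hormone. Per the series text, the 2 arrays of a group come from biological duplicates. The labels do not say how many infections or clones stand behind each mutant, so an effect of the mutant cannot be told apart from a difference between the cell populations that carry it.

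Growth hormone binds its receptor and activates the kinase JAK2, which phosphorylates STAT5 on a tyrosine near its C-terminus. The phosphorylated protein forms dimers, and dimers can pair into tetramers, before it binds DNA sites with the core letters TTCNNNGAA. Its best known target genes encode the feedback inhibitors CIS and the SOCS proteins and, in liver, the growth factor IGF-1. It is also known to repress Bcl6.

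Across the 45037 tested probe sets, replicate arrays had correlations of 0.996 to 0.998, which describe agreement across features and not between independent samples. EA and YF arrays separated on the leading principal component, with 69.9% of the variance. YF with hormone replicate 1 stood apart on the next component, where it scored 55.8, its partner 3.28 and the YF arrays without hormone -25.8 and -32.6. The main numbers of probe sets below are therefore also given without it. Most list counts are instead given as ranges over fits that leave out 1 array each. The values are log2 expression values as deposited, and for 55.0% of the probe sets the mean of all arrays was under 4. These form a dense low group in which the scale is unknown, so the size of a difference with a side there is uncertain. This applies to every group mean under 4 below, also where it is not stated again. All 11 measured fibroblast markers lay above that bound, and the 5 measured blood lineage markers lay in the low group on all arrays. Xist, the RNA of the inactive X chromosome, had a mean of 10.97 in EA and 10.71 in YF cells with hormone, and all 4 measured Y-linked genes lay in the low group.

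After growth hormone, EA and YF cells differed at 4579 of 45037 probe sets, or 10.2%, at a limma adjusted p under 0.05. Of these, 1968 (4.37% of those tested) were higher in EA cells and 2611 (5.8%) were lower. At an unadjusted p under 0.05 the number was 10063, or 22.3%. With each gene represented by its brightest probe set, 2462 of 18193 genes (13.5%) passed, 1183 of them higher (6.5%) and 1279 lower (7.03%). Among the 10935 genes with a group mean of at least 4, 2416 (22.1%) passed. The shares of the gene lists below are to be read against both this 22.1% and the 13.5% of all genes. The median difference over all genes was 0.06 on the log2 scale. Differences of at least 2-fold were found at 2132 probe sets (4.73%), 821 higher (1.82%) and 1311 lower (2.91%) in EA cells, and at 1134 genes (6.23%). Among the largest differences, more were lower than higher in EA cells: 264 lower and 91 higher at 8-fold or more, and 46 lower and 18 higher at 32-fold or more. Without YF with hormone replicate 1 the number of probe sets was 3291, with 1340 higher and 1951 lower, and without EA with hormone replicate 2 it was 2372. With 2 arrays against 2, the arrays of the mutants did not overlap at 63% of probe sets and 64% of genes, so the lack of overlap noted below for single genes is common. In what follows, each difference is EA minus YF with hormone on the log2 scale, with the limma standard error (SE), 2 arrays per group and the adjusted p over all 45037 probe sets. These p-values measure the spread between the arrays of a group. Fits that leave out 1 array are also given. Where that array is an unstimulated one, the difference stays the same and only the estimate of its spread changes.

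STAT5 itself was unequal at the RNA level. The brightest Stat5a probe set read 4.28 and 4.86 on the EA arrays and 8.51 and 7.87 on the YF arrays, a difference of -3.62 (SE 0.32, adjusted p = 0.0036). All EA values lay below all YF values, and the call held in each of the 8 fits that left out 1 array. A further probe set for Stat5a and those for Stat5b were in the low group throughout. Which part of the transcript or vector each probe set reads was not analysed here, and protein levels were not measured, so these values do not give the amount of either mutant protein.

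The question the comparison addresses is how the EA and YF forms of STAT5 differ in the genes they leave active after growth hormone. Of 20 STAT5 target genes measured, 3 feedback inhibitors were higher in EA cells and 5 growth and survival targets were lower. That is 40.0% of the list, against 13.5% of all genes and 22.1% of genes above the low group. The highest was Socs2, an inhibitor of growth hormone signalling, followed by Cish and Socs3, while Igf1 and Bcl6 were the lowest. Promoter windows of Cish and Bcl6 are shown because these genes stood on opposite sides of the comparison and both windows hold the STAT5 core letters. They come from RefSeq on build GRCm38.p6, run from 250 bases before to 50 bases after the transcription start, and have each TTCNNNGAA match in capitals. The Cish window is chr9:107296409-107296708 on the plus strand, and the Bcl6 windows, from the 2 starts listed for that gene, are chr16:23988803-23989102 and chr16:23981234-23981533 on the minus strand.
Cish promoter: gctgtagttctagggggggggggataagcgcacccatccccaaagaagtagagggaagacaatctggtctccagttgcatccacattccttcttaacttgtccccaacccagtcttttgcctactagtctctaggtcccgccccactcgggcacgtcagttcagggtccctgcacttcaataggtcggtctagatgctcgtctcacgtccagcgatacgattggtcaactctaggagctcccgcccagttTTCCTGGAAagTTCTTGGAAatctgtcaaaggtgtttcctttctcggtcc
Bcl6 promoter, the first start: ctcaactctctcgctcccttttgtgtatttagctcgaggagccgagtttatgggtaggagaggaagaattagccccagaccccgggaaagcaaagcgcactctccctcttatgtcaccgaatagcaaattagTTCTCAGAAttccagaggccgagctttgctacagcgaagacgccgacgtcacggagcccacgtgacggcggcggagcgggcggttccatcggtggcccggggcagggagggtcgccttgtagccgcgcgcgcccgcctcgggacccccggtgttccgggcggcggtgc
Bcl6 promoter, the second start: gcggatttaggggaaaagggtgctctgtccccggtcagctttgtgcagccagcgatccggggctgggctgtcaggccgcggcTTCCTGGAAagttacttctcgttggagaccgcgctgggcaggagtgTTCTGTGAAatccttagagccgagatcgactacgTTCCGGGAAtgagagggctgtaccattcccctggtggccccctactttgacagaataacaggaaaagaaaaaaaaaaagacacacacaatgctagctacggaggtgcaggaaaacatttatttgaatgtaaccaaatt
The Cish matches, TTCCTGGAA and TTCTTGGAA, lie at positions 1 and 12 counted from the start. TTCNNNGAA reads the same way on both strands in its fixed letters, so 1 search covers both. It was found in 2726 of the 32851 mouse promoter windows (8.3%), and 150 windows (0.457%) held 2 or more matches. Of the 15 STAT5 target genes with a window, 5 had a match: Cish, Socs3, Igfals, Nox4 and Bcl6. A match is a string of letters and not evidence of binding. The letters appear in windows of genes that were higher in EA cells (Cish, Socs3) and of genes that were lower (Bcl6, Nox4).

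Among the feedback inhibitors, Socs2 read 11.34 and 11.27 on the EA arrays against 6.65 and 6.08 on the YF arrays, a difference of 4.94 (SE 0.34, adjusted p = 0.0017) or 30.6-fold. The EA values stood far above the YF values. On a further Socs2 probe set, whose YF mean was in the low group, the difference was 5.0 (SE 0.16, adjusted p = 0.00020). Cish, which encodes the inhibitor CIS, read 6.90 and 6.76 in EA cells against 4.02 and 3.35 in YF cells, which is 3.14 higher (SE 0.21, adjusted p = 0.0016), although the YF mean was in the low group. Socs3, an inhibitor best known from IL-6 signalling, was at 10.50 and 10.73 against 9.44 and 9.39, a difference of 1.2 (SE 0.18, adjusted p = 0.016). The Socs2 and Cish calls held in every fit with 1 array left out. The Socs3 call was lost without any 1 of the 4 hormone-treated arrays (adjusted p = 0.062 without YF replicate 1, 0.054 without YF replicate 2, 0.050 without EA replicate 1 and 0.098 without EA replicate 2). Socs1 lay in the low group in both.

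Among the growth and survival targets, Igf1, the growth factor, read 5.67 and 5.42 in EA cells against 9.95 and 9.62 in YF cells, a difference of -4.24 (SE 0.44, adjusted p = 0.0058) or 18.9-fold. Igf1 was thus on the opposite side from the feedback inhibitors, and its other 3 probe sets above the low group, at -3.98 to -3.10, passed too. Bcl6, a transcriptional repressor, was at 10.56 and 10.63 against 12.29 and 12.19, a difference of -1.65 (SE 0.07, adjusted p = 0.00034) or 3.14-fold, and its arrays did not overlap. Pim1, a survival kinase, differed by -1.05 (SE 0.12, adjusted p = 0.0068). Nox4, a subunit of the NADPH oxidase family, differed by -1.03 (SE 0.20, adjusted p = 0.035), and Cdkn2b, an inhibitor of cyclin D kinases, by -0.34 (SE 0.05, adjusted p = 0.012). The Igf1 and Bcl6 calls held in all 8 leave-one-out fits. Nox4 lost its call in all 8 (adjusted p = 0.050 to 0.089), Cdkn2b without YF with hormone replicate 1 (0.056) or EA with hormone replicate 2 (0.063), and Pim1 without EA with hormone replicate 2 (0.051).

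The plot of the 8 passing STAT5 targets shows the same values beside those of the unstimulated cells. The targets that did not pass had differences of -0.74 for Myc (SE 0.55, adjusted p = 0.37), 0.50 for Bcl2l11, 0.47 for Bcl2 and 0.24 for Ccnd2. They were -0.14 for Bcl2l1, -0.13 for Mcl1, -0.05 for Cdkn1a and -0.04 for Ccnd1. Igfals, Osm and Il2ra lay in the low group. The 95% interval for Myc, the growth-promoting transcription factor, ran from -2.12 to 0.65, while that for Ccnd1, cyclin D1, ran from -0.19 to 0.10. Each interval is for the brightest probe set alone, and the one for Ccnd1 was the narrower. Other probe sets of Ccnd1, Bcl2l1 and Mcl1 had the opposite sign, as given in the last paragraph, so Ccnd1 was not bounded closely. Without YF with hormone replicate 1, 2 of the 20 were higher and 3 lower, and over the 8 leave-one-out fits the total ranged from 4, without EA with hormone replicate 2, to 7.

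**Figure D1:**
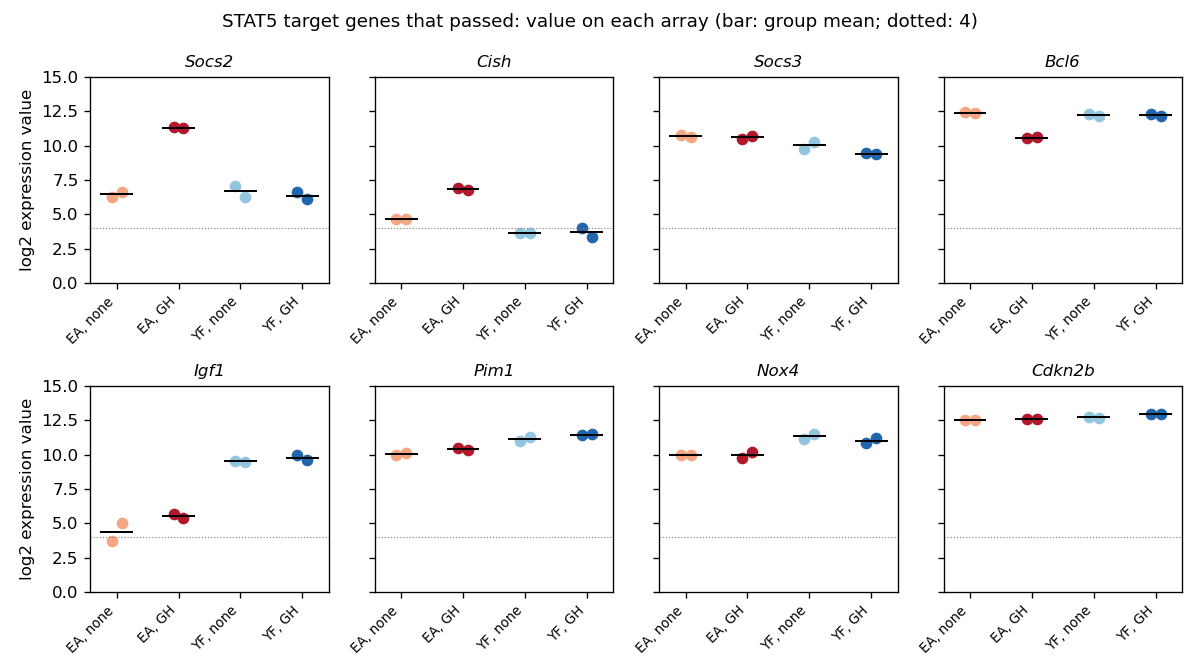
Log2 expression value (vertical axis) of the 8 STAT5 target genes that passed, on each of the 8 arrays, by group (horizontal axis). Each point is an array, the bar is the group mean and the dotted line marks the bound of 4. In Socs2 the EA arrays with hormone (11.27 and 11.34) stand above all others, and in Bcl6 they (10.56 and 10.63) stand below all others, whereas in Igf1 the EA arrays are low with and without hormone.

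The growth hormone and STAT signalling list, which holds Stat5a itself, had 2 of 33 measured members higher and 4 lower. That is 18.2%, between the 13.5% of all genes and the 22.1% of genes above the low group. Fewer passed when EA with hormone replicate 2 was left out. Its receptors and kinases had 2 of 13 higher and 2 lower. Jak1, a Janus kinase used by interferon and IL-6 family receptors, was at 10.96 and 10.73 in EA cells against 11.89 and 11.73 in YF cells, a difference of -0.97 (SE 0.10, adjusted p = 0.0050). Its arrays did not overlap, and its other 2 probe sets gave -1.42 and -2.11 and passed. The receptor gene Ghr was at 13.70 and 13.69 in EA cells against 13.97 and 13.98, a difference of -0.27 (SE 0.04, adjusted p = 0.021) or 1.21-fold. That call was lost without any 1 of the 4 arrays compared (adjusted p = 0.061 to 0.091). Of the 14 inhibitors and phosphatases of the list, 13 did not pass.

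Many of the probe sets that separated the mutants after the hormone also separated them before it. The unstimulated EA and YF arrays differed at 4847 probe sets (10.8%), 2483 higher (5.51%) and 2364 lower (5.25%) in EA, and at 2734 genes (15%), 1507 higher (8.28%) and 1227 lower (6.74%). The share of probe sets with an unadjusted p under 0.05 was 21.2%. The comparisons share no arrays but share 1 estimate of each probe set's spread. In both, 3020 probe sets passed in the same direction, which is 66.0% of those called with hormone and 62.3% of those called without, and 12 passed in opposite directions. Of the probe sets called with hormone, 95.2% had the same sign without it, against 44.3% of all probe sets. Among the 4199 called with hormone whose mean over all 8 arrays was at least 4, the share was 96.4%, against 70.0% of all probe sets at that level. Of the 30 genes with the largest differences, 29 passed in the same direction without hormone, and the exception was Socs2. Without YF with hormone replicate 1, 2544 probe sets passed in both, 77.3% of those called with hormone. Without replicate 2 of that group, 2557 did, 51.8% of those called with hormone, 86.3% of the called probe sets had the same sign and 48 passed in opposite directions.

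Socs2 and Bcl6 differed between the mutants after hormone and did not pass before it. The brightest Socs2 probe set differed by -0.21 between unstimulated EA and YF cells (SE 0.34, adjusted p = 0.90), against 4.94 with hormone, and the difference of these differences was 5.15 (SE 0.47, adjusted p = 0.10). On the other probe set the same quantity was 5.11 (SE 0.23, adjusted p = 0.025) and passed. Bcl6 differed by 0.20 without hormone (SE 0.07, adjusted p = 0.15) and by -1.65 with it, a difference of differences of -1.85 (SE 0.09, adjusted p = 0.025). Cish already differed by 1.04 without hormone (adjusted p = 0.040), and its 2.11 did not pass (adjusted p = 0.20). Igf1, in contrast, was at -5.16 without hormone (adjusted p = 0.0032) against -4.24 with it, a difference of differences of 0.92 (adjusted p = 0.45). The test of this quantity called 9 of 45037 probe sets (0.02%), 4 higher (0.00888%) and 5 lower (0.0111%), and 4 genes by their brightest probe set (0.022%), 2 in each direction (0.011%). At an unadjusted p under 0.05 the number was 4385 (9.74%). When the unstimulated replicate 2 of either mutant was dropped 0 were called, and 1 (EA) or 3 (YF) when it was their replicate 1. Dropping a hormone-treated array gave 48 (EA replicate 1), 15 (EA replicate 2), 8 (YF replicate 1) or 201 (YF replicate 2). With the replicate number as a block 0 probe sets passed this test, and so did 0 among those with a mean of at least 4, where Bcl6 lies, so these calls are not stable.

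Several other genes differed in size, sign or test outcome between the hormone states. Ch25h, which makes 25-hydroxycholesterol, was at 8.27 and 8.17 in EA cells against 7.04 and 7.13 in YF cells with hormone (1.14, SE 0.05, adjusted p = 0.00054), and at 6.08 and 6.03 against 6.72 and 6.76 without it (-0.68, adjusted p = 0.0024). Its order between the mutants thus turned over. Ccl20, a chemokine for CCR6-bearing cells, was at 7.91 and 7.96 against 6.55 and 6.51 with hormone (1.40, SE 0.03, adjusted p = 9.8e-05) and lay in the low group on all 4 unstimulated arrays. Steap4, a metalloreductase of inflamed tissue, was at 6.00 and 6.76 against 3.12 and 3.28 with hormone (3.18, SE 0.25, adjusted p = 0.0028) and differed by 0.23 without it (adjusted p = 0.83). Its YF side lay in the low group, and its difference of differences, 2.94, did not pass (adjusted p = 0.16). Cdk6, a cyclin D kinase, was at 10.25 and 10.19 against 8.87 and 8.79 with hormone (1.39, SE 0.10, adjusted p = 0.0020) and differed by -0.17 without it (adjusted p = 0.47), with a difference of differences of 1.56 (adjusted p = 0.10). Fgf18, a fibroblast growth factor, was at 4.83 and 4.54 against 8.94 and 8.64 with hormone (-4.11, SE 0.19, adjusted p = 0.00052), and -1.42 without it (adjusted p = 0.011). The Fgf18 gap was thus wider with hormone, but that widening, -2.69, did not pass (adjusted p = 0.11). Of the 2462 genes called with hormone, 66 had the opposite sign without it, and 4 passed in both with opposite signs: Ch25h, Alx1 (0.63 with hormone and -0.53 without), Lcat (-0.47 and 0.98) and Tent5a (-0.38 and 0.59). With 1 array left out, the Lcat call with hormone held in 1 of 8 fits (adjusted p up to 0.14) and the Tent5a call in 4 of 8 (up to 0.11).

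**Figure D2:**
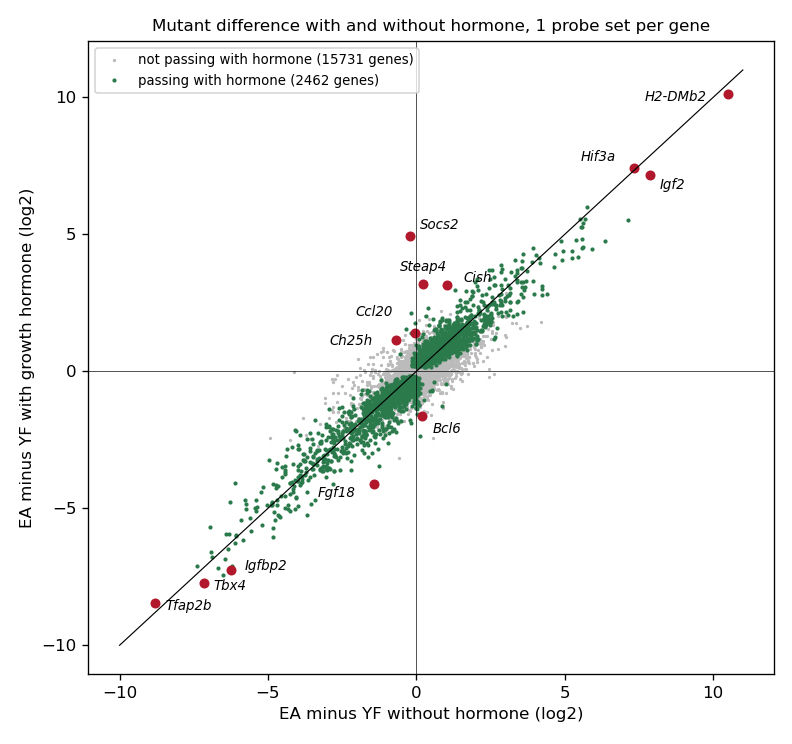
EA minus YF on the log2 scale with growth hormone (vertical axis) against the same without it (horizontal axis), 1 point per gene by its brightest probe set; green points passed with hormone, red points are named and the line marks equal values. H2-DMb2 (10.13) and Tfap2b (-8.46) lie near the line, while Socs2 lies at 4.94 with hormone and -0.21 without.

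The genes with the largest differences were on in 1 mutant and in the low group in the other for most of the 30: the YF mean lay in the low group for 11 of the 15 higher genes and the EA mean for 14 of the 15 lower ones. H2-DMb2, a chain of the chaperone that loads MHC class II molecules, was at 12.00 and 12.29 in EA cells against 2.0 and 2.03 in YF cells (10.13, SE 0.20, adjusted p = 6.1e-05). Hif3a, a hypoxia-inducible factor, was at 9.21 and 8.89 against 1.60 and 1.64 (7.43, SE 0.12). Both YF sides are in the low group, so these sizes are uncertain. The distance between the arrays of the mutants is what these genes were chosen for. Igf2, the fetal growth factor, was at 14.05 and 14.14 against 7.09 and 6.81 (7.15, SE 0.22, adjusted p = 0.00018) with both sides above the low group. Then came Msln, the surface protein mesothelin (6.00), Col15a1, a basement membrane collagen (5.57), Slurp1 (5.56), Nts, the neuropeptide neurotensin (5.53), Efhd1 (5.41), Crabp1, a retinoic acid binding protein (5.28), and Hhatl (5.27). Socs2, Tnnt3, a troponin of fast skeletal muscle (4.83), Adam8, a surface protease (4.80), Ptgds, a prostaglandin D synthase (4.76), and Cd93 (4.74) complete the 15 higher genes.

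At the other end, Tfap2b, a transcription factor of the AP-2 family, was at 2.46 and 2.62 in EA cells against 10.99 and 11.02 in YF cells (-8.46, SE 0.07, adjusted p = 1.1e-05). Tbx4, a T-box factor of the hind limb, was at 2.79 and 2.85 against 10.42 and 10.69 (-7.73, SE 0.20, adjusted p = 0.00011). Igfbp2, a binding protein for insulin-like growth factors, was at 3.60 and 3.30 against 10.97 and 10.40 (-7.24, SE 0.43, adjusted p = 0.0012). In all these genes the EA side is in the low group and the YF side is high. The further genes were Slc22a23, a transporter family member (-7.44), Pax1, a factor of the sclerotome (-7.17), Hoxc5 (-7.10), the Hox cluster transcript Hoxb5os (-7.10), Chdh, choline dehydrogenase (-6.83), Plac8 (-6.78), Epb41l4a (-6.6), Cacna1d, a calcium channel subunit (-6.49), Sprr2k (-6.28), and the PR domain factor Prdm6 (-6.15). Pcolce2, an enhancer of procollagen processing (-6.06), and Prdm16, a factor of brown fat (-6.00), complete the 15 lower genes. These 30 genes were chosen as the largest differences that passed, so their calls in the leave-one-out fits are no separate support. Where a called gene had other probe sets with a mean of at least 4, 86.5% of those 1533 probe sets had the same sign, 42.9% had the same sign and passed, and 21 passed with the opposite sign.

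**Figure D3:**
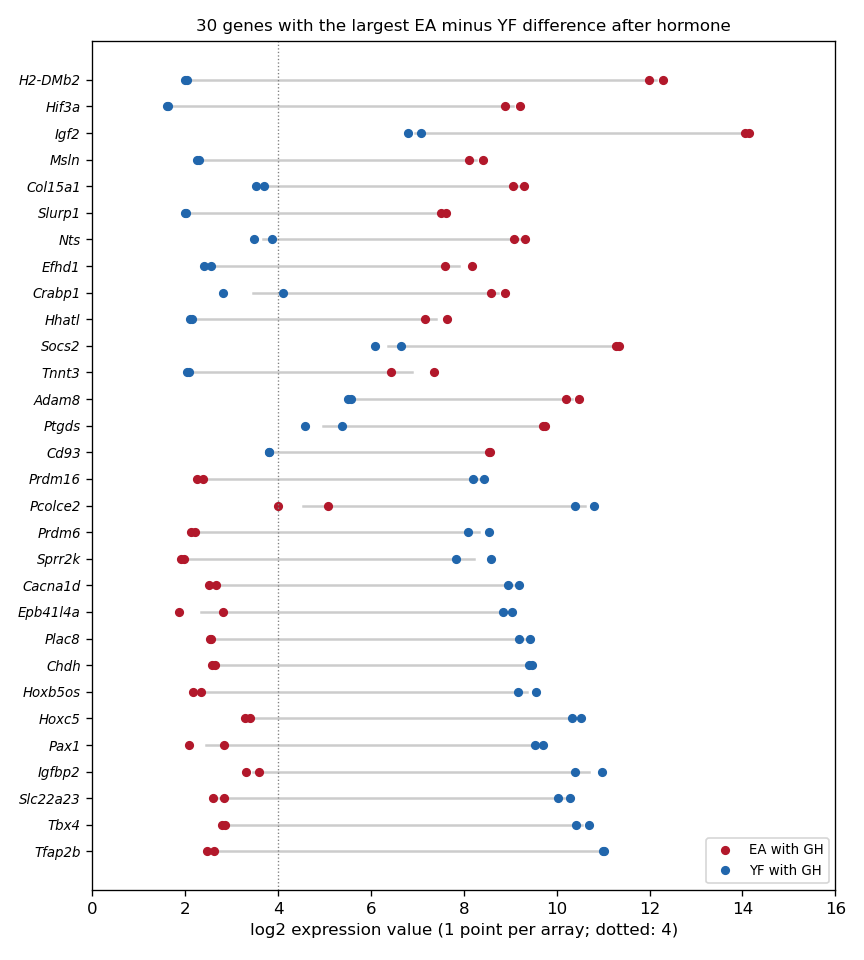
Log2 expression value (horizontal axis) of the 15 genes highest and the 15 lowest in EA relative to YF cells with hormone (vertical axis); each point is an array, red for EA and blue for YF, the grey line joins the group means and the dotted line marks 4. The EA and YF points of a gene do not overlap, as the rule that chose the genes required.

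Hox genes encode the transcription factors that record position along the body axis and keep their pattern in cultured fibroblasts. Of 33 Hox genes measured, 4 were higher and 9 lower in EA cells, 20 did not pass, and the counts by cluster were unequal. The share passing was 39.4%, against 13.5% of all genes and 22.1% of genes above the low group. In the HoxB cluster 5 of 9 were lower and 0 higher (median -4.09), in HoxC 3 of 7 were lower and 0 higher, in HoxA 2 of 9 were higher and 1 lower, and in HoxD 2 of 8 were higher and 0 lower. Hoxc4 was at 3.50 and 3.07 in EA cells against 9.4 and 9.08 in YF cells (-5.95, SE 0.18, adjusted p = 0.00016), and Hoxb4 at 2.12 and 2.04 against 6.92 and 7.19 (-4.97, SE 0.11, adjusted p = 7.5e-05). Both had the EA side in the low group, whereas Hoxc8 was above it in both mutants, at 6.66 and 6.79 against 10.67 and 10.85 (-4.04, SE 0.20, adjusted p = 0.00063). On the other side, Hoxa11 was at 10.33 and 10.07 against 9.21 and 8.90 (1.14, SE 0.14, adjusted p = 0.0086), and Hoxd9 at 12.71 and 12.53 against 11.97 and 11.84 (0.71, SE 0.08, adjusted p = 0.0067). The passing HoxA and HoxD genes that were higher in EA cells thus differed by at most 1.14, and the passing HoxB and HoxC genes by -4.04 or more in size. All 13 passing Hox genes also passed in the same direction without hormone. Hoxb3 (-4.90), Hoxb6 (-4.70) and Hoxb9 (-4.16) passed in all leave-one-out fits, as did Hoxd8 (0.61). Hoxb5 (-4.09), Hoxa5 (-1.04) and Hoxa9 (0.60) did not: without YF with hormone replicate 1 their adjusted p was 0.11, 0.059 and 0.087. Over the 8 fits 3 to 4 were higher and 7 to 9 lower.

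Of 46 other transcription factors with regional expression in the embryo, 5 were higher and 10 lower, or 32.6%, and 31 did not pass, with 4 to 5 higher and 7 to 12 lower over the leave-one-out fits. Lhx2, a LIM factor of the limb bud, was at 2.83 and 2.86 in EA cells against 6.96 and 6.85 in YF cells (-4.06, SE 0.08, adjusted p = 5e-05), and Foxd1 at 3.52 and 3.83 against 6.70 and 7.10 (-3.23, SE 0.21, adjusted p = 0.0016). Msx1, a homeobox factor of limb and face, was above the low group in both, at 7.56 and 7.75 against 10.46 and 10.31 (-2.73, SE 0.09, adjusted p = 0.00018). Within the T-box family the members went opposite ways. Tbx4 was lower, as given above, while Tbx18 was higher, at 11.55 and 11.74 against 9.33 and 9.84 (2.06, SE 0.18, adjusted p = 0.0033), and so was Tbx15, at 12.32 and 12.31 against 11.76 and 11.58 (0.64, SE 0.07, adjusted p = 0.0062). A second probe set of Tbx15 gave 0.46 (adjusted p = 0.37). Without the hormone 5 of the genes just named differed alike: Hoxc4 by -6.30, Hoxb4 by -5.44, Lhx2 by -3.90, Msx1 by -2.17 and Tbx18 by 1.83, with adjusted p of 5.3e-05 to 0.0043.

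**Figure D4:**
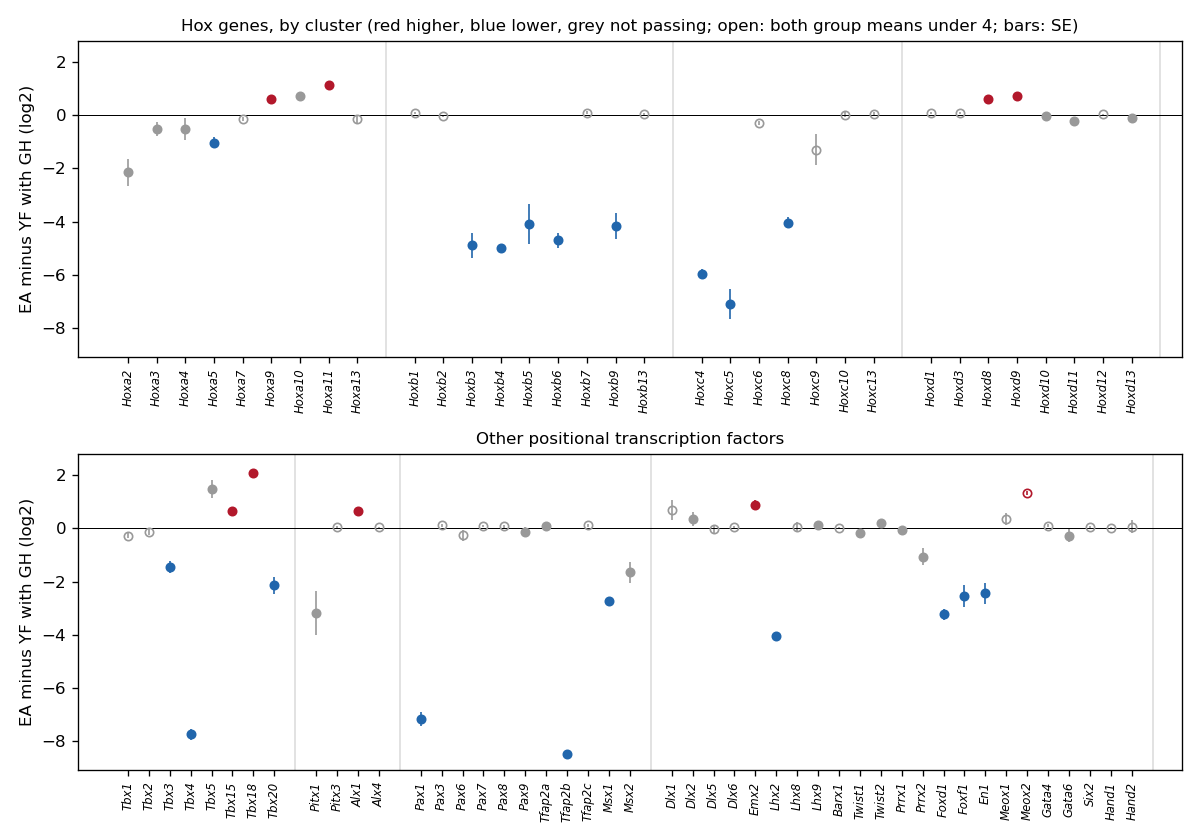
EA minus YF with growth hormone on the log2 scale (vertical axis) for each measured Hox gene, ordered by cluster (upper panel), and for the other positional transcription factors (lower panel); bars are SE, red and blue points passed higher and lower, grey points did not pass and open points have both means under 4. In HoxB and HoxC the passing genes lie at -7.10 to -4.04, and in HoxD at 0.61 and 0.71.

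The insulin-like growth factor system, which carries much of the growth effect of growth hormone, was divided. Of 14 genes measured, 2 were higher and 5 lower in EA cells, or 50%, with 1 to 2 and 5 to 6 over the leave-one-out fits. The 7 genes that passed also did so in the same direction without hormone. Among the ligands, Igf2 was higher by 7.15 and Igf1 lower by 4.24 with hormone, with the values given above. Both receptors differed as well: Igf1r, the signalling receptor, was at 10.20 and 10.30 in EA cells against 11.09 and 11.10 in YF cells (-0.85, SE 0.04, adjusted p = 0.00077), and Igf2r, which clears IGF-2, at 12.98 and 13.07 against 12.50 and 12.42 (0.56, SE 0.07, adjusted p = 0.010). The binding proteins that passed were lower in EA cells. They were Igfbp2, Igfbp6 at 5.83 and 6.10 against 10.12 and 9.73 (-3.96, SE 0.44, adjusted p = 0.0068) and Igfbp4 at 12.26 and 12.40 against 13.21 and 13.35 (-0.95, SE 0.10, adjusted p = 0.0059). Igf2r lost its call without EA with hormone replicate 2 (adjusted p = 0.062).

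Igf2 is also imprinted, meaning that it is expressed from 1 parental copy, and it stands in a list of imprinted genes. Of 23 measured, 9 were higher in EA cells, 3 were lower and 11 did not pass, so that 52.2% passed, with 5 to 8 higher and 2 to 3 lower over the leave-one-out fits and 7 in all without EA with hormone replicate 2. Dlk1, a Notch-like surface protein of progenitors, was at 12.99 and 12.99 in EA cells against 10.70 and 10.39 in YF cells (2.44, SE 0.10, adjusted p = 0.00040), and its paired long RNA Meg3 at 13.31 and 13.22 against 12.30 and 12.53 (0.85, SE 0.11, adjusted p = 0.011). Cdkn1c, a cell cycle inhibitor, was at 6.6 and 6.44 against 4.73 and 4.55 (1.88, SE 0.21, adjusted p = 0.0072), and Slc22a18, a transporter gene, at 9.44 and 8.99 against 4.88 and 4.79 (4.38, SE 0.17, adjusted p = 0.00034). All EA arrays lay above all YF arrays in these 4 genes. The higher genes included paternally expressed ones (5 of 13) and maternally expressed ones (4 of 10). Grb10, an adaptor of the insulin receptor, was lower, at 13.46 and 13.45 against 14.03 and 14.09 (-0.61, SE 0.05, adjusted p = 0.0024). Meg3 lost its call without EA with hormone replicate 1 (adjusted p = 0.057) or 2 (0.060), and Igf2 is counted in both lists.

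Among signalling genes of the mesenchyme, more were lower than higher in EA cells. In the Wnt pathway 13 of 40 measured genes were lower and 0 higher, or 32.5%, with 10 to 14 lower and 0 higher over the leave-one-out fits. Sfrp1, a secreted Wnt antagonist, was at 7.32 and 7.27 in EA cells against 11.93 and 12.02 in YF cells (-4.68, SE 0.08, adjusted p = 3.6e-05), and its relative Sfrp2 at 12.01 and 12.22 against 13.92 and 13.84 (-1.77, SE 0.11, adjusted p = 0.0014). Fzd4, a Wnt receptor, was at 7.95 and 8.02 against 9.49 and 10.03 (-1.77, SE 0.17, adjusted p = 0.0049). The list thus held lower antagonists and lower receptors together. In the TGF-beta and BMP pathway 4 of 45 were higher and 12 lower, or 35.6%, with 2 to 6 and 7 to 13 over the fits and 9 in all without EA with hormone replicate 2. Bmp2, a bone morphogenetic protein, was at 4.10 and 3.41 against 9.49 and 9.45 (-5.72, SE 0.26, adjusted p = 0.00054, EA side in the low group), and Bmp4 at 12.00 and 11.85 against 13.67 and 13.61 (-1.71, SE 0.08, adjusted p = 0.00056). Id3, a common target of BMP signalling, was at 9.01 and 8.76 against 11.32 and 10.78 (-2.16, SE 0.22, adjusted p = 0.0056), and the BMP antagonist Chrdl1 at 5.76 and 7.05 against 10.04 and 10.76 (-3.99, SE 0.50, adjusted p = 0.010). Tgfbr3, a co-receptor, was the other way, at 12.24 and 12.09 against 10.68 and 10.76 (1.44, SE 0.14, adjusted p = 0.0044). The BMP antagonist Chrd was also higher, by 2.33 (SE 0.23, adjusted p = 0.0052), with its YF side in the low group. BMP antagonists thus lay on both sides.

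Of 14 fibroblast growth factors and receptors, 5 were lower and 0 higher (35.7%, 3 to 4 lower over the leave-one-out fits, 3 without EA with hormone replicate 1), led by Fgf18. Fgfr3, an FGF receptor of cartilage, was at 5.38 and 5.64 in EA cells against 7.60 and 7.84 in YF cells (-2.20, SE 0.13, adjusted p = 0.0011). Of 16 VEGF and angiopoietin genes, 3 were higher and 5 lower (50%), with 0 to 3 and 3 to 5 over the fits and 3 in all without EA with hormone replicate 2. Flt1, a VEGF receptor, was at 2.88 and 4.02 against 7.30 and 6.93 (-3.67, SE 0.45, adjusted p = 0.0092), and Flt4, the receptor of lymphatic vessels, at 5.57 and 5.24 against 7.85 and 7.5 (-2.27, SE 0.17, adjusted p = 0.0024). Among 14 retinoid genes, 2 were higher and 5 lower (50%, 2 and 4 to 6 over the fits). Cyp26b1, which breaks down retinoic acid, was at 3.47 and 3.16 against 6.71 and 6.92 (-3.50, SE 0.37, adjusted p = 0.0060), and Aldh1a3, which makes it, at 4.37 and 5.32 against 7.32 and 8.14 (-2.88, SE 0.40, adjusted p = 0.014). Enzymes of synthesis and of breakdown were therefore lower together, while the binding protein Crabp1 was higher. The 7 passing retinoid genes also passed in the same direction without hormone.

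Interferon-stimulated genes were higher in EA cells where they passed. Of 34 measured, 12 were higher and 0 lower, or 35.3%, and the list median was 0.44 against 0.06 over all genes. Over the leave-one-out fits 6 to 12 were higher and 0 to 1 lower, with 6 higher without EA with hormone replicate 2. Ifi27l2a was at 10.12 and 10.15 in EA cells against 7.40 and 6.94 in YF cells (2.97, SE 0.15, adjusted p = 0.00067), Xaf1 at 10.28 and 10.01 against 7.66 and 8.18 (2.23, SE 0.21, adjusted p = 0.0047), and the antiviral protein gene Ifit1 at 9.74 and 9.41 against 6.18 and 7.36 (2.81, SE 0.40, adjusted p = 0.014). Ifi27l2a and Xaf1 held in all leave-one-out fits, and Ifit1 lost its call without EA with hormone replicate 1 (adjusted p = 0.066) or 2 (0.072). Without hormone these genes already differed, by 3.62, 2.40 and 3.54 (adjusted p = 0.00035, 0.0037 and 0.0069). Of 15 MHC genes, 3 were higher and 0 lower (20.0%, near the 22.1% of genes above the low group). H2-DMa, the partner chain of H2-DMb2, was at 10 and 9.72 against 5.20 and 6.19 (4.17, SE 0.34, adjusted p = 0.0030). H2-DMb2 itself is not among the 15 MHC genes counted. Cd68, a lysosomal protein used as a macrophage marker, was also higher, at 11.24 and 10.77 against 8.49 and 8.07 (2.73, SE 0.21, adjusted p = 0.0023). Of the 9 macrophage markers measured, 6 lay in the low group in all groups and Cd68 alone passed. The other markers above it were Csf1r, with a difference of -0.48 (adjusted p = 0.31), and Cd14, with 0.69 (adjusted p = 0.28). The mean over the 9, Cd68 included, was 4.42 and 4.31 on the EA arrays and 4.08 and 4.00 on the YF arrays. Their part in the immune differences was not tested.

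Chemokines were split by gene. Of 25 measured, 6 were higher and 5 lower in EA cells, or 44.0%, with 4 to 7 and 2 to 4 over the leave-one-out fits, and 4 and 3 without EA with hormone replicate 2. Cxcl1, a neutrophil attractant, was at 12.28 and 12.41 in EA cells against 9.98 and 10.26 in YF cells (2.22, SE 0.20, adjusted p = 0.0038), and Ccl9 at 9.18 and 9.49 against 7.68 and 7.95 (1.52, SE 0.17, adjusted p = 0.0074). Cxcl15, a chemokine of epithelia, was at 10.68 and 10.31 against 12.51 and 12.41 (-1.97, SE 0.14, adjusted p = 0.0018), and Cxcl16 at 6.18 and 6.15 against 7.14 and 6.96 (-0.89, SE 0.09, adjusted p = 0.0059). The CC chemokines that passed were all higher (3 of 12), while the CXC and CX3C group had 3 higher and 5 lower of 13. Receptors differed too: Tlr4, the receptor of bacterial lipopolysaccharide, was at 7.83 and 7.80 against 10.05 and 10.57 (-2.50, SE 0.20, adjusted p = 0.0027), and Tlr3, a receptor of double-stranded RNA, at 10.97 and 10.92 against 10.23 and 10.26 (0.70, SE 0.05, adjusted p = 0.0017). Of 36 genes of the NF-kB pathway, 3 were higher and 4 lower (19.4%; 2 in all without EA with hormone replicate 1), and 0 of its 10 feedback inhibitors passed in limma, with 3 at an unadjusted p under 0.05. Of 39 inflammatory cytokines and surface genes, 7 were higher and 3 lower (25.6%), with 6 to 8 and 1 to 3 over the leave-one-out fits. The NF-kB share lies between the 13.5% of all genes and the 22.1% of genes above the low group. The inflammatory share is near that 22.1%. Il11, a cytokine of the IL-6 family, was at 8.64 and 8.47 against 4.47 and 3.58 (4.53, SE 0.34, adjusted p = 0.0023), and Selp, the adhesion molecule P-selectin, at 11.06 and 10.69 against 7.19 and 7.67 (3.44, SE 0.24, adjusted p = 0.0018).

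The extracellular matrix differed in named members on either side. Of 35 proteoglycans and glycoproteins, 4 were higher and 11 lower in EA cells, or 42.9%, with 1 to 4 and 5 to 9 over the leave-one-out fits, the lowest total without EA with hormone replicate 2. Dcn, the proteoglycan decorin, was at 3.34 and 2.49 in EA cells against 8.22 and 8.09 in YF cells (-5.24, SE 0.29, adjusted p = 0.00096), and Lama2, a laminin chain, at 5.93 and 6.29 against 9.54 and 9.77 (-3.54, SE 0.17, adjusted p = 0.00059). Nid2, a basement membrane linker, was higher, at 11.34 and 11.31 against 9.44 and 9.49 (1.86, SE 0.12, adjusted p = 0.0014). Of 33 collagen genes, 5 were higher and 4 lower (27.3%), with 3 to 4 and 4 to 5 over the fits. Of all genes 13.5% passed, and of those above the low group 22.1%. The 9 passing collagen genes also passed in the same direction without hormone. Col2a1, the collagen of cartilage, was at 2.87 and 2.91 against 8.69 and 8.32 (-5.61, SE 0.17, adjusted p = 0.00016), and Comp, another cartilage matrix gene, at 7.46 and 7.27 against 9.14 and 9.28 (-1.84, SE 0.14, adjusted p = 0.0024). Of the 8 cartilage markers measured these 2 alone passed (25%). The list median was 0.08, and 4 members lay in the low group in both mutants. Of 26 matrix proteases and inhibitors, 3 were higher and 8 lower (42.3%), with 1 to 3 and 4 to 10 over the fits and 5 in all without EA with hormone replicate 2. Mmp9, a gelatinase, was at 8.66 and 8.58 against 5.18 and 5.33 (3.36, SE 0.28, adjusted p = 0.0031), whereas the other gelatinase, Mmp2, was at 12.26 and 12.02 against 13.80 and 13.68 (-1.59, SE 0.10, adjusted p = 0.0013). The gelatinases thus stood on opposite sides.

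Of 16 contractile genes of smooth muscle, 6 were lower and 0 higher in EA cells, or 37.5%, with 4 to 6 lower and 0 to 1 higher over the leave-one-out fits. Cnn1, calponin, was at 5.90 and 5.27 in EA cells against 10.52 and 10.21 in YF cells (-4.78, SE 0.27, adjusted p = 0.0011), Actg2, an enteric actin, at 8.83 and 8.59 against 11.28 and 11.15 (-2.50, SE 0.27, adjusted p = 0.0061), and Mylk, myosin light chain kinase, at 8.33 and 8.40 against 9.79 and 9.89 (-1.48, SE 0.06, adjusted p = 0.00043). Of the 11 fibroblast markers 2 passed, both lower (18.2%, near the 22.1% of genes above the low group). Thy1, a surface glycoprotein of many fibroblasts, was at 7.72 and 7.48 against 12.54 and 12.45 (-4.89, SE 0.13, adjusted p = 0.00010), while S100a4 differed by -0.25 (adjusted p = 0.048) and lost its call in each leave-one-out fit (adjusted p up to 0.18). Markers of other cell types also separated the mutants. Krt19, a keratin of simple epithelia and mesothelium, was at 10.09 and 9.36 against 5.53 and 4.99 (4.47, SE 0.40, adjusted p = 0.0037), and Wt1, a mesothelial and kidney factor, was at 2.45 and 2.55 against 6.94 and 7.71 (-4.83, SE 0.27, adjusted p = 0.00095). With Msln, mesothelial markers thus lay on both sides, 2 higher and 1 lower of 7, and the mean over the 7 was 4.43 and 4.37 on the EA arrays against 3.50 and 3.64 on the YF arrays. Of the 8 epithelial markers 7 lay in the low group, and of the 8 endothelial ones 6. Stmn2, a neuronal microtubule regulator, was lower in EA cells, at 10.16 and 9.85 against 13.20 and 12.72 (-2.95, SE 0.20, adjusted p = 0.0017), and Nes, the progenitor filament nestin, was higher, with means of 10.64 against 9.21 (1.43, SE 0.21, adjusted p = 0.016). Of the 7 neural and glial markers 1 was higher and 3 lower, and their mean was 6.50 and 6.53 against 7.22 and 7.28. The part of other cell types in the matrix, muscle and signalling differences was not tested, and fewer cells of a type cannot be told apart from less RNA per cell.

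Of 27 glutathione and oxidative stress genes measured, 8 were higher and 4 lower in EA cells, or 44.4%, with 5 to 6 and 3 to 5 over the leave-one-out fits. Gstt1 and Gstm2, glutathione transferases, were at 10.21 and 9.86 against 7.85 and 8.20 (2.01, SE 0.22, adjusted p = 0.0064) and at 12.48 and 12.41 against 10.77 and 10.97 (1.58, SE 0.08, adjusted p = 0.00081). Gpx3, the plasma glutathione peroxidase, was at 7.88 and 7.64 against 11.31 and 11.12 (-3.45, SE 0.16, adjusted p = 0.00054), and Sod3, the extracellular superoxide dismutase, at 5.19 and 4.05 against 8.74 and 8.52 (-4.01, SE 0.38, adjusted p = 0.0046). Hspb1, a small heat shock protein, was at 9.29 and 9.49 against 13.38 and 13.03 (-3.82, SE 0.35, adjusted p = 0.0040), although 12 of the 15 heat shock genes did not pass. Epas1, the hypoxia-inducible factor HIF-2 alpha, was at 4.82 and 4.16 against 7.24 and 7.42 (-2.84, SE 0.22, adjusted p = 0.0024), the opposite side from Hif3a. Epas1 is in the hypoxia list, whereas Hif3a is not and is left out of its counts. Of 13 hypoxia targets, 2 were higher and 1 lower (23.1%, near the 22.1% of genes above the low group), and 0 passed without YF with hormone replicate 1. The whole list of 19 had 1 to 5 passing over the leave-one-out fits, the fewest without EA with hormone replicate 1.

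Immediate early genes had 8 of 38 measured members higher and 6 lower, or 36.8%, with 3 to 9 and 3 to 6 over the leave-one-out fits and 6 in all without EA with hormone replicate 2. Dusp4, a MAP kinase phosphatase, was at 2.18 and 2.15 in EA cells against 6.98 and 7.08 in YF cells (-4.87, SE 0.15, adjusted p = 0.00017), whereas its relative Dusp5 was at 6.67 and 6.62 against 4.44 and 4.21 (2.32, SE 0.19, adjusted p = 0.0030). Dusp4 differed alike without hormone (-4.70, adjusted p = 0.00019), and Dusp5 did not pass there (0.40, adjusted p = 0.35). Egr1, an early growth response factor, was at 11.91 and 11.96 against 11.30 and 11.17 (0.70, SE 0.07, adjusted p = 0.0049). Of 47 cell cycle genes, 3 were higher and 7 lower (21.3%), close to the 22.1% of genes above the low group, and 0 of the 18 genes of G1/S and replication were higher and 5 lower. Cdc6, which licenses replication origins, was at 8.32 and 8.51 against 9.67 and 9.95 (-1.40, SE 0.14, adjusted p = 0.0056), and Cdkn1b, the inhibitor p27, at 12.92 and 13.24 against 11.82 and 12.10 (1.12, SE 0.14, adjusted p = 0.0089). Over the leave-one-out fits 3 to 4 cell cycle genes were higher and 2 to 6 lower, 5 in all without EA with hormone replicate 2. Trib3, a pseudokinase induced by ATF4, was higher, at 8.02 and 7.62 against 6.47 and 6.34 (1.41, SE 0.14, adjusted p = 0.0048), in a list of 30 ATF4 and unfolded protein response genes with 5 higher and 1 lower (20.0%, against 22.1% of genes above the low group), and 3 in all without EA with hormone replicate 2. The prostaglandin list had 1 of 16 higher and 3 lower (25%, near the 22.1% of genes above the low group). Ptgis, prostacyclin synthase, was at 5.79 and 4.23 against 8.67 and 8.90 (-3.77, SE 0.49, adjusted p = 0.011), on the side opposite to Ptgds. Sterol and fatty acid synthesis had 1 of 25 higher and 5 lower (24.0%, near that 22.1%), with 1 and 1 to 6 over the leave-one-out fits and 2 in all without EA with hormone replicate 2.

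**Figure D5:**
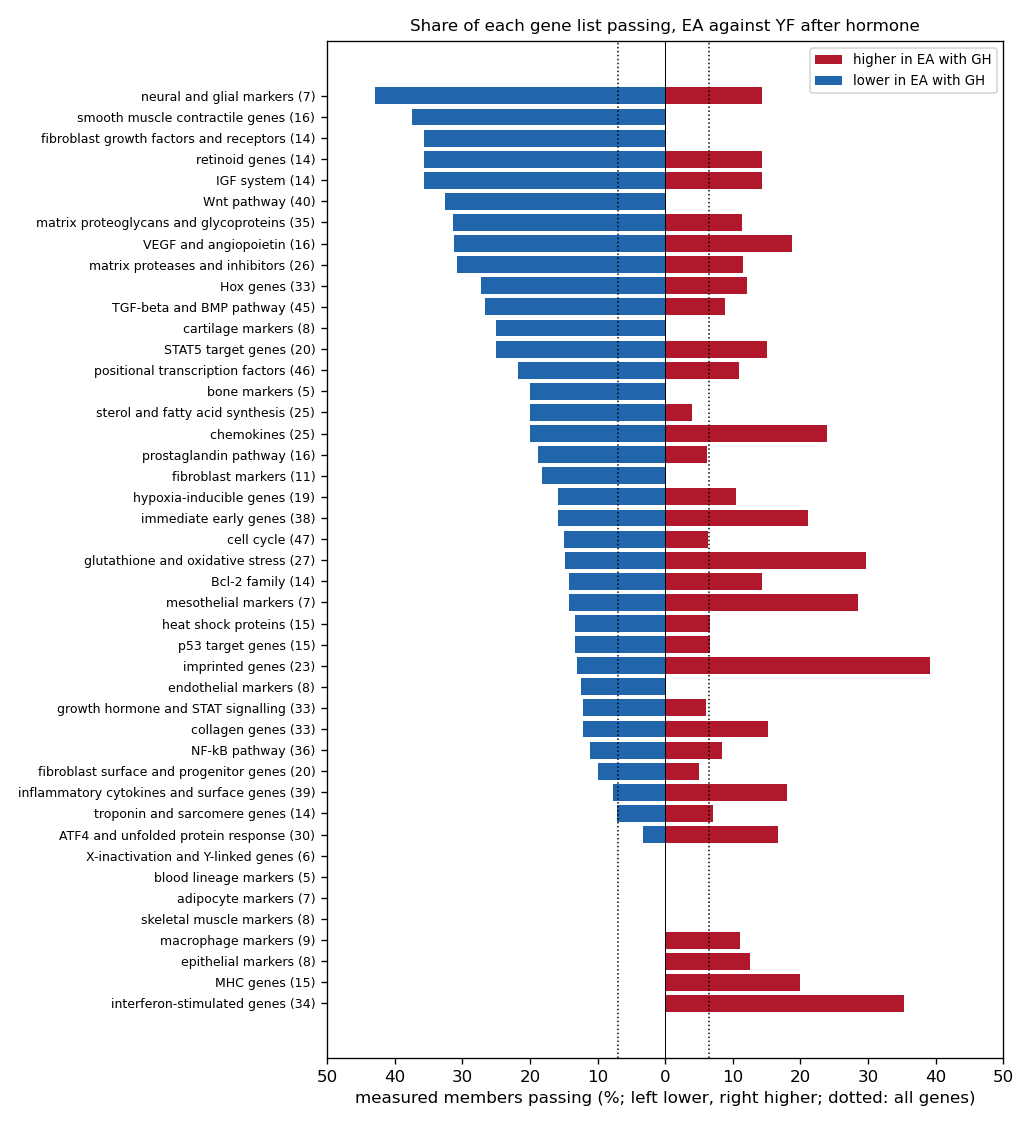
Share of the measured members of each gene list (vertical axis, number measured in brackets) that passed higher (right, red) or lower (left, blue) in EA relative to YF cells with hormone, in percent (horizontal axis); dotted lines mark the shares over all genes, 6.5% higher and 7.03% lower. Interferon-stimulated genes have bars to the right alone (12 of 34), and smooth muscle (6 of 16) and Wnt genes (13 of 40) to the left alone.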

How the data were processed

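RNA of EA and YF cells with and without growth hormone was measured on 8 Affymetrix arrays, and samples were grouped by their labels. Per the labels' protocols, total RNA was extracted with TRIzol and labelled with biotin. The authors deposited 1 log2 value for each probe set and array. The submitters' processing notes name GCOS and RMA without versions or settings. No further normalization was applied.

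Control probe sets (64 of 45101) were left out. Of the rest, 34945 carried 1 gene symbol, 932 several and 9160 none in the platform annotation. Genes were named from the first kind alone, each by its brightest probe set. Tests used limma 3.58.1 in R 4.3.3 (lmFit and eBayes, two-sided) over 4 group means and all 8 arrays, with 4 residual and 1.26 prior degrees of freedom and Benjamini-Hochberg adjustment over 45037 probe sets. The fit was tested on simulated data with planted changes. For EA against YF with hormone it recovered 11 of 50 changes of log2 size 1 and 36 of 50 of size 2. Of its 148 calls, 11 were false. The data held far more calls than the simulation, so these shares do not carry over directly.

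The compared samples, gene lists (44, with 885 genes measured) and the naming rule were chosen with earlier results of these data known. The rule took the 15 genes with the largest difference in each direction, every STAT5 target, up to 6 passing members per list, role and direction, and each gene whose mutant difference changed with hormone. The genes with opposite signs with and without hormone were named after their values were seen. Alternatives were quantile normalization, array centring, level filters, trended and robust variances, a fit of the 4 arrays compared, a replicate block, other probe sets and leaving out each array.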

Additional observations from a re-analysis of the deposited data

Results flagged for a closer look

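The difference between EA and YF cells was itself different with and without hormone at 9 probe sets by the limma contrast of the differences. With the replicate number as a block 0 probe sets passed, and likewise 0 among those with a mean of at least 4. As a signed value, EA minus YF rose with hormone for Socs2 (by 5.11), Ch25h (by 1.82) and Ccl20 (by 1.44). It also rose for Dmp1 (by 0.88) on a probe set in the low group throughout, from -0.92 without hormone to -0.03 with it. The brightest Dmp1 probe set went the other way, from -1.71 to -2.28, a difference of differences of -0.57 that did not pass. EA minus YF fell from positive to negative for Bcl6 (by -1.85) and Elf2 (by -1.04). For Opn1sw (-1.17) it shrank from 1.33 to 0.16. For Gda (-1.16) it fell from -0.13 to -1.29 and for Cdca2 (-1.05) from -0.03 to -1.07, so there the gap widened. The adjusted p-values of the 9 called probe sets ran from 0.022 to 0.028. In Elf2, an ETS family factor, the YF arrays with hormone read 6.92 and 6.94 against 6.27 and 6.33 in EA cells, and the unstimulated arrays had the reverse order. Every array was in the low group for Gda and Opn1sw, and for Cdca2 every array but YF with hormone, so their sizes are uncertain. No explanation was tested.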

How the results depend on the processing

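The number of probe sets passing in EA against YF with hormone was 4579. It was 3824 with centred arrays, 4309 after quantile normalization, 5140 with a mean of at least 4 and 3852 with the replicate number as a block, but 2381 in a fit of the 4 arrays compared, which has fewer arrays to estimate the spread from. Leaving out 1 array gave 2372 to 4939 (1397 to 2394 at 2-fold or more), and for the unstimulated comparison 2488 to 5170. The difference of the differences passed at 9 probe sets, at 0 among those with a mean of at least 4, 1 above the median level, 42 with trended and robust variances and 0 with the replicate block, and at 0 to 201 with 1 array left out. The cause of these changes was not tested. EA and YF arrays with hormone share replicate numbers, and their deviations correlated at 0.37, but only 2 pairs exist and no label ties them, so the block is an alternative alone.

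Over the 284 named genes, 3557 values kept direction and side of the threshold, 677 kept direction but no longer passed, 1 passed anew and 2 turned sign: Cdkn1a without YF with hormone replicate 1 (0.039, against -0.13 without replicate 2) and Il2ra after quantile normalization (-0.0041). The level filters, the fit of the arrays compared, trended and robust variances, the replicate block and dropping an unstimulated array left each difference unchanged. Those settings could change the p-value alone, so a kept direction there says nothing about stability. Among the settings, a sign could turn only after quantile normalization, array centring or dropping a hormone-treated array. Other probe sets turned the sign for Bcl2l1 (0.76 and 0.59), Bmpr1a (-0.21), Ccnd1 (0.40 and 0.40), Mcl1 (0.30), Ptpn11 (0.049), Thbs2 (0.10) and Ikbkg (0.68, 0.035, 0.95 and 0.53, the first passing at adjusted p = 0.0029). Other probe sets in the low group on both sides gave no value. The 2 arrays per group, with no detection calls, limit what can be seen among dim genes.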
